A study of Mus musculus with 2 samples.

Results

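The Hox genes of the newborn mouse adrenal gland are described here, taken as every protein-coding gene whose symbol is Hox followed by a cluster letter a to d and a number from 1 to 13. This rule gave 39 genes of the 43346 Ensembl genes measured, with 11 in the HoxA cluster, 10 in HoxB, 9 in HoxC and 9 in HoxD. Total RNA was sequenced from adrenal glands of strain B6NCrl at postnatal day 0, and the labels name neither a genetic change nor a treatment. There were 2 libraries, pup 2 and pup 1, each from the 2 adrenals of a single pup and started from 10 ng of RNA, with spike-in RNA added. Per the labels both pups came from pregnant animal number 1, they carry the same donor entry, and their sex was not collected. Both libraries form 1 group, so no contrast between conditions exists, no test was run, and a difference between the pups rests on 1 library each. Levels are given in TPM (transcript abundance scaled to 1 fixed total per library), a unit corrected for transcript length that can be compared between genes.

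Hox proteins are transcription factors that bind DNA through the homeodomain, encoded by a sequence called the homeobox. In mammals the genes lie in 4 clusters, and genes at corresponding places in different clusters form paralog groups, numbered in the order in which the genes are switched on along the body from head to tail. Low-numbered groups pattern the hindbrain and neck, central groups the thorax, and high-numbered groups the lumbar, sacral and tail regions, the limbs and the urogenital tract. The adrenal cortex arises from trunk mesoderm next to the developing kidney and gonad, and the medulla from neural crest of the trunk.

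The libraries held 40800539 estimated counts for pup 2 and 41510071 for pup 1, so that 3 counts, the limit taken for a count of 0, are a very small share of each. The labelled tissue was evident in both, since all 7 cortex markers and all 6 chromaffin markers reached TPM 1, with cortex markers summing to 17156 TPM in pup 2, against 6435 TPM in pup 1. Markers of other tissues differed between the libraries, and their values are given beside the results they move with. Ratios between the pups are log2 of pup 2 over pup 1 after scaling of counts by TMM, a method that centres the bulk of genes, and they are therefore relative to that bulk. Spike-in RNA took 0.00250% of the pup 2 counts, against 0.0138% of those of pup 1, and scaling by it moved the ratios of all genes by a median of 2.57, which places all 30 Hox genes with a ratio higher in pup 2.

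Both glands expressed a central stretch of the Hox series. All 11 members of paralog groups 5 to 8 reached TPM 1 in both pups, against 4 of 12 in groups 1 to 4 and 4 of 16 in groups 9 to 13. Over the whole family 19 of 39 Hox genes (48.7%) reached TPM 1 in both pups, where 60.5% of all protein-coding genes did. A further 8 reached it in pup 2 alone and 0 in pup 1 alone. Over all 43346 Ensembl genes, 15226 reached it in pup 2 and 14757 in pup 1. The share that reached it in 1 pup alone was not counted over all genes. The 8 and 0 are thus not shown to be particular to Hox genes. The summed level of the family was 231 TPM in pup 2, against 162.5 TPM in pup 1, a mean of 197 ± 48.8 TPM (SD, n = 2). By TMM scaling the log2 ratio of the family's summed counts was only 0.12. Over all genes, log2 ratios of TPM ran above those of counts by a median of 0.38. Groups 5 to 8 held 67.2% of the summed TPM in pup 2 and 71.0% in pup 1. Across the 39 genes the pups ranked the family similarly, with a Spearman correlation of 0.947 and a Pearson correlation of log2 levels of 0.921. These correlations are across genes of 2 libraries and are a description only.

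**Figure D1:**
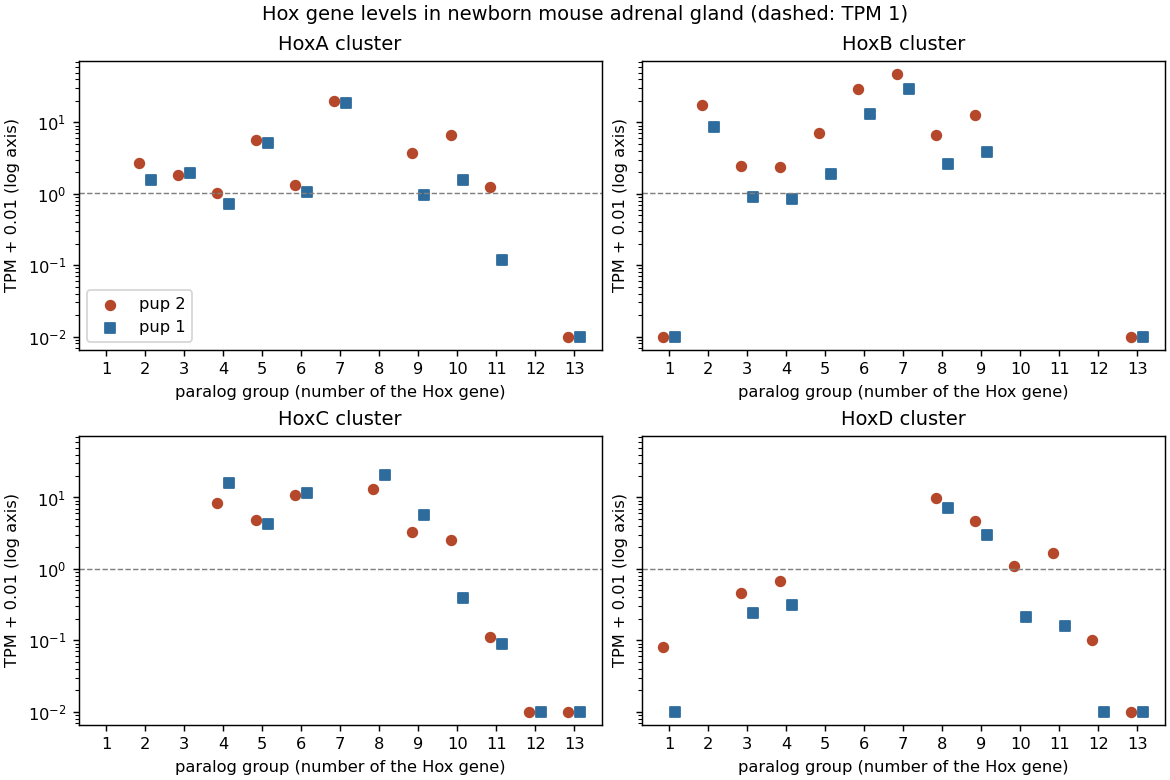
TPM plus 0.01 on a log axis for 38 of the 39 Hox genes, by paralog number in 4 panels for the clusters, with pup 2 as circles, pup 1 as squares and a dashed line at TPM 1. The highest points are Hoxb7 at 47.4 TPM in pup 2, against 29.2 TPM in pup 1, and the group 13 genes lie at 0 in both pups.

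Genes that led their paralog group are shown first by the part of the homeobox that encodes the DNA-recognition helix, because this helix makes the main contacts with DNA. Each line gives codons 42 to 58 of the homeodomain, 51 bases read 5′ to 3′ on the coding strand from the GENCODE M21 transcripts (GRCm38), for the most abundant member of group 2 and of groups 4 to 10. Capitals mark bases that differ from Hoxb7, the most abundant Hox gene of these glands.
Hoxb2: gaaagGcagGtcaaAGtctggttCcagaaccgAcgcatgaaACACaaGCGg
Hoxc4: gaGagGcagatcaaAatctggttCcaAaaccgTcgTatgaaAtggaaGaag
Hoxa5: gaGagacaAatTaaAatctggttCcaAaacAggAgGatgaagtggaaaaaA
Hoxb6: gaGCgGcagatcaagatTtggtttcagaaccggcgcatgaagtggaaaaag
Hoxb7: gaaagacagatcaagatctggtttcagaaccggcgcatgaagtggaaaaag
Hoxc8: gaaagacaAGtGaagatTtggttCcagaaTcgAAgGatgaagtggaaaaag
Hoxb9: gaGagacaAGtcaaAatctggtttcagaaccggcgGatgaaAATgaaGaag
Hoxa10: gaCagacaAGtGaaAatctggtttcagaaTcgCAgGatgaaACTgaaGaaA
Hoxb6 differed from Hoxb7 at 4 of these bases, whereas Hoxb2 differed at 13 and Hoxa10 at 14. These are differences in bases, and those in the Hoxb6, Hoxc4 and Hoxa5 lines leave the encoded residues the same as in Hoxb7. Over the whole homeobox of 180 bases, Hoxb6 was 88.9% identical to Hoxb7 and Hoxb9 61.7%. Within a paralog group the median identity of homeoboxes was 80.6% over 42 pairs (67.2% to 93.9%), against 61.7% over 172 pairs of the same cluster in other groups. No stretch of 100 bases was shared between Hox transcripts except in 2 pairs with overlapping exons, Hoxc5 with Hoxc10 and Hoxd3 with Hoxd4. The Hoxc5 exons that overlap Hoxc10 lie far from its coding transcript, in a processed transcript that starts at position 102967443 of chromosome 15.

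Paralog group 7 was the highest, at 67.0 TPM in pup 2, against 48.1 TPM in pup 1. Hoxb7, whose promoter is widely used to drive transgenes in the ureteric bud of the mouse kidney (ENSMUSG00000038721.8, chr11:96286623-96290162, plus strand, mm10), stood at 38.3 ± 12.8 TPM (SD, n = 2). It ranked 3094 among 21461 protein-coding nuclear genes by mean level. Its cluster mate Hoxb6, a trunk and limb bud gene (ENSMUSG00000000690.5, chr11:96292476-96301569, plus strand), had 29.4 TPM in pup 2, against 12.95 TPM in pup 1. Hoxb6 was thus the runner-up by mean level. It had more than 2-fold the TPM in pup 2, but was 1.71-fold higher there by TMM-scaled counts.

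Hoxa7, the group 7 gene of the HoxA cluster (ENSMUSG00000038236.7, chr6:52214491-52221854, minus strand), had 19.6 TPM in pup 2, against 18.9 TPM in pup 1. The pups were close for this gene, and the quantifier's intervals, 18.1 to 21.8 TPM in pup 2, against 17.1 to 20.6 TPM in pup 1, overlapped. Hoxc8, which specifies pools of spinal motor neurons in the mouse (ENSMUSG00000001657.7, chr15:102990607-102994111, plus strand), had 13.03 TPM in pup 2, against 20.7 TPM in pup 1. It was the highest gene of the HoxC cluster and of group 8. Hoxc6, which acts in limb motor neurons and the mammary gland, had 10.99 TPM in pup 2, against 11.6 TPM in pup 1.

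The remaining genes of the central groups were lower. Hoxd8, the highest gene of the HoxD cluster, had 9.74 TPM in pup 2, against 7.16 TPM in pup 1. Hoxb8, known in the mouse for its part in microglia and grooming, had 6.76 TPM in pup 2, against 2.58 TPM in pup 1. Hoxa5, needed for lung and airway development, had 5.66 TPM in pup 2, against 5.06 TPM in pup 1. Of these 3 genes, Hoxb8 was the one with a wide gap between the pups. Hoxb5, a gene of trunk and enteric neural crest, had 7.01 TPM in pup 2, against 1.87 TPM in pup 1. Hoxc5 had 4.76 TPM in pup 2, against 4.20 TPM in pup 1, and Hoxa6, the lowest gene of these groups, 1.30 TPM in pup 2, against 1.06 TPM in pup 1. Hoxb5 and Hoxc5, of the same paralog group, differed between the pups by very different amounts.

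**Figure D2:**
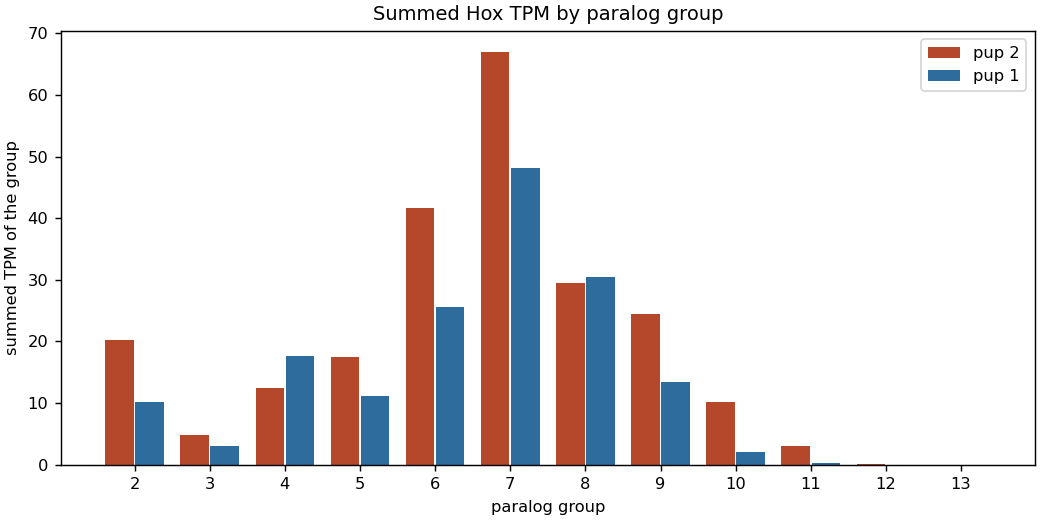
Summed TPM of the Hox genes of paralog groups 2 to 13, with bars from 0 for pup 2 and pup 1. Group 7 is highest at 67.0 TPM in pup 2, against 48.1 TPM in pup 1, and groups 10 and 11 are the groups with the largest relative gap among those above 0 in both pups.

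The anterior groups held 16.5% of Hox TPM in pup 2 and 19.2% in pup 1, and most of it came from Hoxb2 and Hoxc4. Hoxb2, a hindbrain patterning gene (ENSMUSG00000075588.6, chr11:96350525-96354012, plus strand), had 17.5 TPM in pup 2, against 8.71 TPM in pup 1. Hoxc4 (ENSMUSG00000075394.4, chr15:103018934-103036852, plus strand) had 8.49 TPM in pup 2, against 15.8 TPM in pup 1. These 2 genes stood in opposite order in the pups. Hoxa2, which sets the identity of the hyoid arch, had 2.73 TPM in pup 2, against 1.53 TPM in pup 1. Hoxa3, needed for thymus and parathyroid, had 1.84 TPM in pup 2, against 1.92 TPM in pup 1. Hoxb3 had 2.48 TPM in pup 2, against 0.88 TPM in pup 1, and Hoxb4, known as a regulator of blood stem cells, 2.33 TPM in pup 2, against 0.83 TPM in pup 1. Hoxb3 and Hoxb4 reached TPM 1 in pup 2 only. Hoxb1, a hindbrain gene, had 0 counts in both pups.

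Of the posterior groups, group 9 was well represented and groups 12 and 13 lay at or near 0 counts. Hoxb9, a thoracic and lumbar patterning gene, had 12.8 TPM in pup 2, against 3.85 TPM in pup 1. Hoxd9 had 4.64 TPM in pup 2, against 2.96 TPM in pup 1. Both were higher in pup 2, with the wider gap in Hoxb9. Hoxc9, which sets thoracic motor neuron identity in the mouse, had 3.30 TPM in pup 2, against 5.68 TPM in pup 1. Hoxa9, a gene of blood progenitors and leukaemia, had 3.69 TPM in pup 2, against 0.95 TPM in pup 1. Hoxc9 was the group 9 gene that stood higher in pup 1. Group 13, which patterns digits and the end of the trunk, had 0 counts in all 4 genes in both pups, and at this depth 0 counts allow up to 3 counts per library. Hoxc12 also had 0 counts in both, and Hoxd12 had 7 counts in pup 2 and 0 in pup 1.

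The 16 Hox genes with a mean below 1 TPM comprised 4 of HoxA, 2 of HoxB, 3 of HoxC and 7 of HoxD. The highest of each were Hoxa4 at 0.87 TPM in the mean, Hoxc11 at 0.09 TPM and Hoxd11 at 0.90 TPM, and both of HoxB lay at 0. In all, 6 of the 39 genes had 0 counts in both pups (Hoxa13, Hoxb1, Hoxb13, Hoxc12, Hoxc13 and Hoxd13) and a further 2 had 0 counts in pup 1 alone (Hoxd1, with 4 counts in pup 2, and Hoxd12). HoxD was thus represented mainly by Hoxd8 and Hoxd9.

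The balance of the clusters differed between the pups. HoxB held 54.2% of Hox TPM in pup 2 and 37.5% in pup 1, whereas HoxC held 18.7% in pup 2 and 36.0% in pup 1. HoxA, at 19.2% and 19.8%, and HoxD, at 7.95% and 6.77%, took similar shares in pup 2 and pup 1. Summed HoxB TPM was 2.91 times that of HoxC in pup 2 and 1.04 times in pup 1, a 2.79-fold difference that does not depend on how the libraries are scaled to each other. The HoxB genes summed to 125.54 TPM in pup 2, against 60.9 TPM in pup 1. The HoxC sum was 43.2 TPM in pup 2, against 58.4 TPM in pup 1. In bulk tissue, fewer cells of a type and less RNA per cell cannot be told apart.

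**Figure D3:**
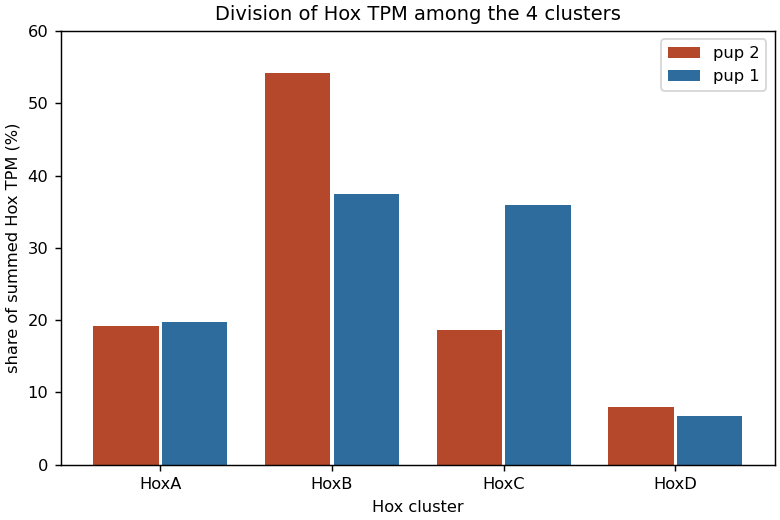
Share of summed Hox TPM in each of the 4 clusters, in percent, with bars from 0 for pup 2 and pup 1. HoxB takes 54.2% in pup 2 and 37.5% in pup 1, and HoxC 18.7% in pup 2 and 36.0% in pup 1.

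Gene by gene, 30 Hox genes had a mean count of at least 10, and by TMM scaling 21 of them were higher in pup 2 and 9 in pup 1, where 50.1% of all 18670 genes with such counts were higher in pup 2. Their median log2 ratio was 0.49 (from -1.27 to 2.98), against 0.00 over all genes. Of the 30, 10 were more than 2-fold higher in pup 2 and 3 more than 2-fold higher in pup 1, which makes 13 in either direction. Over all genes 15.8% lay that far apart, 6.03% upward in pup 2 and 9.75% upward in pup 1. The 10 were Hoxa9, Hoxa10, Hoxa11, Hoxb4, Hoxb5, Hoxb9, Hoxc10, Hoxd4, Hoxd10 and Hoxd11, and the 3 were Hoxc4, Hoxc8 and Hoxc9. Hoxd4, 2.04-fold higher in pup 2, lay just past the 2-fold line and Hoxb8, 1.99-fold higher, just short of it.

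The directions went partly with the cluster and partly with the paralog group. By TMM scaling all 8 HoxB genes with sufficient counts were higher in pup 2. Their median log2 ratio was 0.89, from 0.29 in Hoxb7 to 1.56 in Hoxb5. Spike-in scaling and TPM ratios also put all 8 higher in pup 2. They move the ratios of all genes that way, by medians of 2.57 and 0.38, so they do not check this direction. All 6 HoxD genes were higher in pup 2 too (median 0.78), with Hoxd8 at 0.09 and Hoxd11 at 2.98, and the counting intervals of Hoxd3 and Hoxd8 held 0. In HoxC, 5 of 6 genes were lower in pup 2 by TMM scaling (median of the 6 genes -0.75), although all 5 were higher in pup 2 under spike-in scaling and Hoxc5 also by TPM. Hoxc10 was the exception, with 150 counts in pup 2 and 28 in pup 1 and a log2 ratio of 2.32. HoxA was mixed. Its 3 central genes Hoxa5, Hoxa6 and Hoxa7 had log2 ratios from -0.28 to -0.08 by TMM, and all 3 were higher in pup 2 under spike-in scaling and by TPM.

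**Figure D4:**
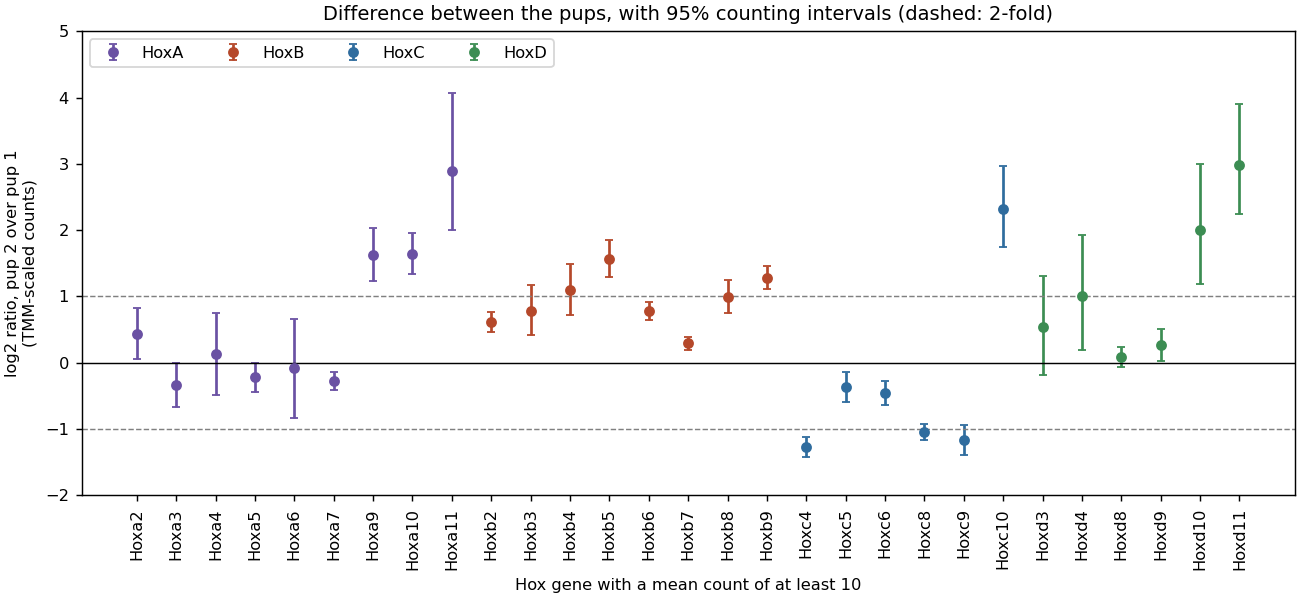
Log2 ratio of TMM-scaled counts, pup 2 over pup 1, with 95% counting intervals for 29 of the 30 Hox genes whose mean count reached 10, coloured by cluster, with dashed lines at 2-fold. The HoxB and HoxD genes lie above 0, the HoxC genes except Hoxc10 below it, and the ratios of groups 9 to 11 are the highest within HoxA. Spike-in scaling would place all 30 above 0.

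Among genes with sufficient counts, those of groups 10 and 11 had the largest median difference between the pups of any paralog group. Group 10 acts in the lumbar region and limbs, and in the mouse group 11 genes are jointly required for the metanephric kidney. Hoxa10 (ENSMUSG00000000938.11, chr6:52231197-52240854, minus strand) had 6.56 TPM (378 counts) in pup 2, against 1.55 TPM (114 counts) in pup 1. Hoxc10 had 2.53 TPM in pup 2, against 0.38 TPM in pup 1, and Hoxd10 1.08 TPM in pup 2, against 0.20 TPM in pup 1. Hoxd11 (ENSMUSG00000042499.13, chr2:74679557-74687016, plus strand) had 1.65 TPM (129 counts) in pup 2, against 0.15 TPM (15 counts) in pup 1, and Hoxa11 1.23 TPM (82 counts) in pup 2, against 0.11 TPM (10 counts) in pup 1. Pup 2 was higher in each of these 5 genes, by log2 ratios of 1.64 in Hoxa10 to 2.98 in Hoxd11, and the interval of each lay wholly above 1. Hoxc11 had 6 counts in each pup, too few for a ratio. These levels are of whole genes and include transcripts not annotated as coding. A processed transcript held 60.5% of Hoxa10 TPM in pup 2 and 66.2% in pup 1. In Hoxd11 such a transcript held 60.2% in pup 2 and 66.8% in pup 1, and in Hoxa11 76.3% and 12.3%. Hoxc10 and Hoxd10 each have 1 annotated transcript, which is coding. Summed, groups 10 and 11 stood at 13.15 TPM in pup 2, against 2.47 TPM in pup 1, or 0.0845 and 0.0214 of the level of groups 5 to 8 in the same library, a 3.95-fold difference that scaling does not touch.

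Markers of several other cell types and tissues moved with these differences. A kidney list of 10 genes, most of them genes of the developing nephron, summed to 39.2 TPM in pup 2, against 6.52 TPM in pup 1, and all 8 genes with sufficient counts were more than 2-fold higher in pup 2 (median log2 ratio 2.58). Within it Pax2 had 3.46 TPM in pup 2, against 0.22 TPM in pup 1, and Six2, a nephron progenitor factor, 3.11 TPM in pup 2, against 0.28 TPM in pup 1. The tubule genes Cdh16 (3.75 TPM in pup 2, against 0.67 TPM in pup 1) and Aqp2 (3.50 TPM in pup 2, against 0.92 TPM in pup 1) were also more than 2-fold higher in pup 2. Umod had 3 counts in pup 2 and 0 in pup 1. A further list of 12 genes of mature tubule and podocyte, drawn up after those values were seen and sharing Umod and Nphs1 but not Cdh16 and Aqp2, differed in direction. It summed to 2.42 TPM in pup 2, against 4.88 TPM in pup 1, with 0 of 8 genes higher in pup 2 and a median log2 ratio of -0.997 by TMM, although 6 of the 8 were higher in pup 2 under spike-in scaling. The proximal tubule gene Kap had 0 counts in pup 2 and 32 in pup 1. What part kidney RNA has in the levels of groups 10 and 11 was not tested.

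**Figure D5:**
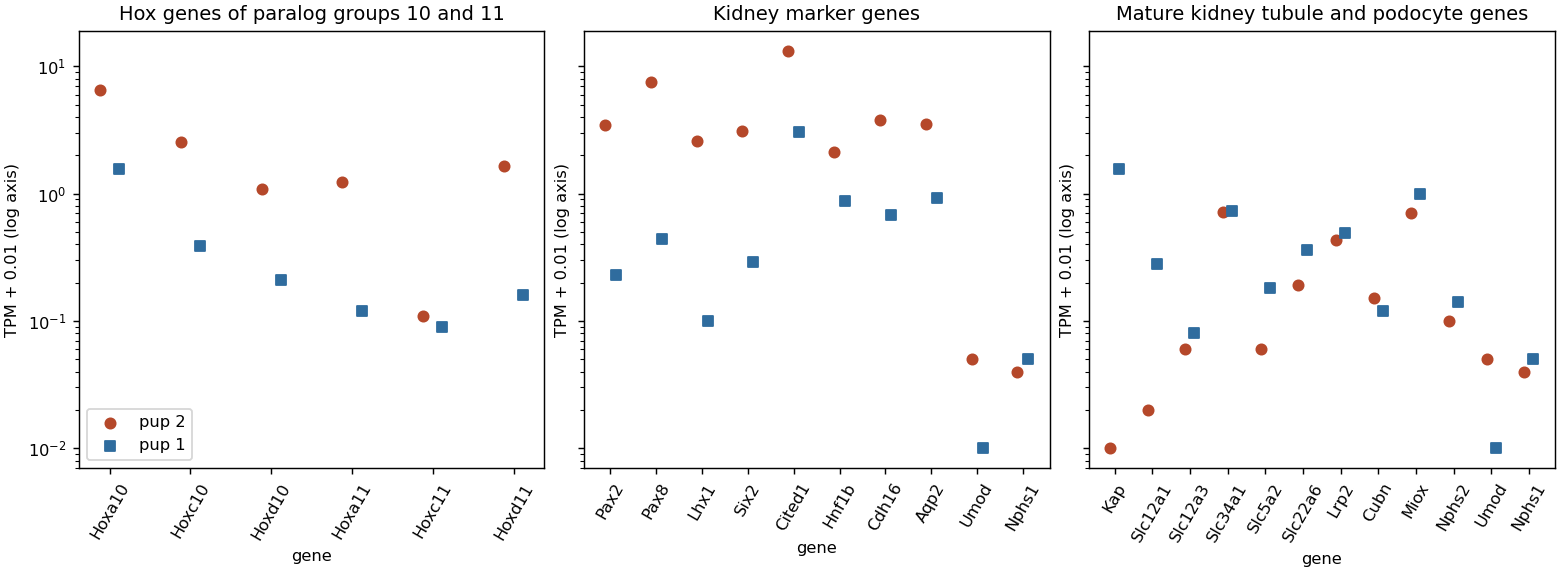
TPM plus 0.01 on a log axis for the Hox genes of groups 10 and 11, 10 kidney markers and 12 mature kidney genes, with pup 2 as circles and pup 1 as squares. Hoxa10 and Hoxd11 lie above pup 1 in pup 2 as Pax2 and Six2 do, whereas Kap is at 0 in pup 2.

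The lower HoxC levels in pup 2 stood beside lower levels of neural, glial, stromal, stomach and liver markers there by TMM scaling, whereas under spike-in scaling all of these except 5 of the 6 stomach markers were higher in pup 2. Sympathetic neuron markers summed to 368 TPM in pup 2, against 1144 TPM in pup 1, with 6 of 6 more than 2-fold lower in pup 2 (median -1.99). Glial markers were lower in pup 2 in 5 of 5 (a sum of 87.96 TPM in pup 2, against 171 TPM in pup 1) and capsule and stroma markers in 8 of 8 (1941 TPM in pup 2, against 2348 TPM in pup 1). Liver markers were lower in pup 2 in 5 of 5 (1803 TPM in pup 2, against 2328 TPM in pup 1) and blood cell markers in 4 of 6 (613 TPM in pup 2, against 950 TPM in pup 1), and under spike-in scaling all liver and blood markers were higher in pup 2. Stomach and oesophagus markers summed to 5.15 TPM in pup 2, against 124.75 TPM in pup 1, with Gkn1 at 0 counts in pup 2. Lists that stood higher in pup 2 beside HoxB by TMM scaling included cortex (7 of 7, median 1.18) and skeletal muscle (6 of 6, 231.5 TPM in pup 2, against 56.2 TPM in pup 1). The part of these tissues in the balance of HoxB and HoxC was not tested.

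Group 4 shows the opposition of clusters within 1 paralog group, since Hoxc4 had a log2 ratio of -1.27 and Hoxb4 of 1.09 by TMM scaling, while both were higher in pup 2 under spike-in scaling. Their promoter windows, 250 bases before to 50 after the RefSeq start (GRCm38.p6), are shown for that reason, chosen after the values were seen. Hoxb4 lies at chr11:96318017-96318316 and Hoxc4 at chr15:103034145-103034444, both on the plus strand, and each is read 5′ to 3′. Capitals mark matches, on either strand, to the TATA box TATAAA, the CCAAT box CCAAT, the GC box GGGCGG or the Hox-Pbx site TGATNNAT.
Hoxb4: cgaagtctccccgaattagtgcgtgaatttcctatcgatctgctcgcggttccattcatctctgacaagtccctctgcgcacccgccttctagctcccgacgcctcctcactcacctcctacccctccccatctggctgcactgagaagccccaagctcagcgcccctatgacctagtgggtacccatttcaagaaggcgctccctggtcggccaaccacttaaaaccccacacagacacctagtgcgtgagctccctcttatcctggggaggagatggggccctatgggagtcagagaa
Hoxc4: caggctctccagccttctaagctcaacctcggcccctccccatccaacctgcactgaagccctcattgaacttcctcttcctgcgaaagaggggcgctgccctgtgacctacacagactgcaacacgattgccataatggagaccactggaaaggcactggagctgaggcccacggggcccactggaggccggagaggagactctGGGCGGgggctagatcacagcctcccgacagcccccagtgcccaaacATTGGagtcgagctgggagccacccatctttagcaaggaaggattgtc
The Hoxc4 window held 1 GC box and 1 CCAAT box, the CCAAT box on the minus strand, and the Hoxb4 window held none of the 4 motifs. The transcript that starts in this Hoxc4 window made up 89.6% of the gene's TPM in pup 2 and 94.4% in pup 1, and the single Hoxb4 transcript starts in the Hoxb4 window. RefSeq windows were at hand for 22 of the 39 genes, 24 windows in all. CCAAT occurred in 62.5% of them and in 37.4% of all 32851 windows of this length, GGGCGG in 41.7% and 35.7%, TGATNNAT in 16.7% and 8.85%, and TATAAA in 16.7% and 13.6%. The median ratio of observed to expected CpG was 0.63 in Hox windows and 0.38 in all windows. A match is only a description of the letters.

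Transcript shares were compared for the abundant genes. Of 10 Hox genes with a mean of at least 5 TPM, 9 have more than 1 annotated transcript, and the leading transcript was the same in both pups in all 9. The widest gap was in Hoxb9, in which the shorter transcript of 2269 bases held 34.4% of the gene's TPM in pup 2 and 0% in pup 1. Hoxb7 came almost wholly from its longer transcript, 98.2% in pup 2 and 100% in pup 1. Hoxb2 came mostly from its coding transcript of 1628 bases, 95.2% in pup 2 and 95.1% in pup 1. Hoxb6 (86.3% in pup 2, 83.5% in pup 1), Hoxc6 (80.6% and 80.3%) and Hoxd8 (96.5% and 91.0%) also had a dominant coding transcript. In Hoxc8 a transcript with a retained intron held 24.2% in pup 2 and 19.9% in pup 1. In Hoxa7 the leading transcript is annotated as subject to nonsense-mediated decay and held 42.6% in pup 2 and 37.7% in pup 1, close to the 41.6% and 35.5% of a coding transcript.

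Several Hox genes share exon sequence with a neighbour, which bears on their counts. By the annotation 24 of the 39 had no exon overlap with another gene, 8 overlapped a gene on the same strand and 10 a gene on the opposite strand. No source used here says whether counting used strand, so a gene and its antisense partner cannot be told apart. Hoxb3os covered 52.9% of the exon bases of Hoxb3 and 27.3% of those of Hoxb2, Hoxaas3 covered 20.4% of Hoxa7, and Hoxa11os 35.0% of Hoxa11. Hoxd3 and Hoxd4 share 5′ exons with each other, and both also overlap the gene Gm28230 on the same strand. Together these overlaps covered 62.3% of the exon bases of Hoxd3 and 52.3% of those of Hoxd4. Hoxb3, Hoxd3 and Hoxd4 were the 3 genes whose posterior standard deviation exceeded 10% of the count in either pup, and their values are uncertain. Of groups 10 and 11, Hoxa10 and Hoxc11 had no such overlap. Without overlapped genes the mean share of HoxA was 8.71%, against 19.5% with them, and that of HoxB 49.9%, of HoxC 32.9% and of HoxD 8.52%.

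The cofactors with which Hox proteins bind DNA were expressed in both pups. All 9 genes of the Pbx, Meis and Pknox families, which encode homeodomain proteins of the TALE class, reached TPM 1, and none was more than 2-fold apart by TMM. By TMM 3 were higher in pup 2 and 6 in pup 1, and under spike-in scaling all 9 were higher in pup 2. Meis1 had 39.96 TPM in pup 2, against 45.7 TPM in pup 1, Pbx3 42.8 TPM in pup 2, against 18.3 TPM in pup 1, and Meis2 33.3 TPM in pup 2, against 14.5 TPM in pup 1.

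The upstream Cdx genes, which activate Hox clusters in the early tail end of the embryo, were close to 0. Cdx1 had 0.15 TPM in pup 2, against 0.35 TPM in pup 1, Cdx2 0 TPM in pup 2, against 0.15 TPM in pup 1, and Cdx4 was at 0 in both. Evx1 and Evx2, which lie beside the group 13 genes of HoxA and HoxD, were at 0 in both pups, as was the whole of group 13. Chromatin regulators that keep Hox clusters silent or active were expressed throughout. All 17 Polycomb genes reached TPM 1, with 8 higher in pup 2 and 9 in pup 1 by TMM and all 17 higher in pup 2 by spike-in scaling. Rnf2, a ubiquitin ligase of the complex, was highest at 63.6 TPM in pup 2, against 37.2 TPM in pup 1. All 9 Trithorax and MLL complex genes did so too, led by Dpy30 at 176.61 TPM in pup 2, against 155.17 TPM in pup 1. None of the Polycomb, Trithorax and MLL genes was more than 2-fold apart by TMM. Of 8 genes that flank the clusters 7 reached TPM 1, led by Mtx2 beside HoxD at 144.73 TPM in pup 2, against 144.82 TPM in pup 1, and by TMM none of the 7 was more than 2-fold apart.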

How the data were processed

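Total RNA from 2 adrenal gland libraries was analysed, 1 per pup. For each library the authors deposited tables of genes and transcripts with estimated counts that need not be whole, TPM, FPKM, and a posterior standard deviation and interval bounds given as a score on the count or TPM scale. The deposited percent values say how a gene's TPM is divided among its transcripts. The text deposited with each library names mm10 and GENCODE M4. Aligner, quantifier and strand handling: not given in the sources used here. Symbols, coordinates and exons were those of GENCODE M21, also on mm10. Spike-in and numbered rows, 0.00250% and 9.59e-05% of counts in pup 2 and 0.0138% and 2.65e-05% in pup 1, were left out of library sizes. The counts were not whole in 15.9% of gene rows in pup 2 and 15.3% in pup 1, and were rounded.

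Log2 ratios of pup 2 over pup 1 used rounded counts plus 0.5 and TMM factors of edgeR 4.0.16, run in R 4.3.3, and were kept where the mean count reached 10. Exact binomial 95% intervals cover counting error only and hold no variation between animals. PCR copies cannot be told from separate molecules without molecular identifiers, so the intervals may be too narrow even for that error. Each pup is 1 library, so no test was run. The ratio step was tested on simulated data. The Hox genes and the gene lists were chosen with earlier results of these data known. All 39 genes entered the TPM sums and TPM counts, and the 30 with sufficient counts the ratios. Levels are given per pup for those with a mean of at least 1 TPM, isoforms from a mean of 5 TPM, and other lists by at most the 3 highest genes plus Cdx and Evx. Marker genes are named where a result turns on them. Some items are not reported here. Homeobox DNA took the place of protein motifs, which were not analysed here. Alternatives were DESeq2 1.42.0 size factors, spike-in scaling, TPM ratios, other thresholds, pseudocount 2, posterior means, transcript sums, FPKM, TPM over protein-coding nuclear genes and each pup alone. Leaving out genes with exon overlap was chosen after seeing the data. Other steps used python 3.11.15, pandas 2.3.3, numpy 2.4.6 and scipy 1.17.1.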

Additional observations from a re-analysis of the deposited data

Results flagged for a closer look

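Several noncoding genes inside the Hox clusters gave signal although the comparisons above use only protein-coding genes, and that is why they are listed. In HoxA, Hotairm1, an antisense RNA, had 46.7 TPM in pup 2, against 40.4 TPM in pup 1. Its mean of 43.5 TPM lay above the 38.3 TPM of Hoxb7. The other HoxA genes were Gm27477 (10.4 TPM in pup 2, 8.45 TPM in pup 1), Hoxaas2 (2.11 TPM in pup 2, 1.77 TPM in pup 1), Gm15050 (4.18 TPM in pup 2, 3.17 TPM in pup 1) and Hoxaas3 (7.17 TPM in pup 2, 6.23 TPM in pup 1). Gm27477 rests on 15 counts in each pup over an effective length of 44 bases. In HoxB, Gm53 had 18.96 TPM in pup 2, against 9.49 TPM in pup 1, Hoxb5os 6.38 TPM in pup 2, against 5.54 TPM in pup 1, and Hoxb3os 5.48 TPM in pup 2, against 3.53 TPM in pup 1. In HoxD, Hoxd3os1 had 34.4 TPM in pup 2, against 41.7 TPM in pup 1. Hoxa11os had 2.93 TPM (86 counts) in pup 2 and 0 counts in pup 1, at least 27.0-fold higher in pup 2 against a floor of 3 counts in that library. It overlaps Hoxa11, which was also higher in pup 2, and the genes cannot be told apart without strand.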

How the results depend on the processing

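No paired analysis was possible because both libraries belong to 1 group and no test was run. Spike-in scaling gave a median log2 ratio of 3.04 for the Hox genes and put all 30 over 2-fold apart. Under it the direction turned for Hoxa3 (2.23), Hoxa5 (2.34), Hoxa7 (2.29), Hoxc4 (1.29), Hoxc5 (2.20), Hoxc6 (2.11), Hoxc8 (1.53) and Hoxc9 (1.40), and for Hoxa6 (2.45), whose counting interval held 0 by TMM. That scaling moves the ratios of all genes by a median of 2.57. TPM ratios turned Hoxa5 (0.16), Hoxa7 (0.055), Hoxc5 (0.18) and likewise Hoxa6 (0.27), where ratios of TPM run above those of counts by a median of 0.38 over all genes. Rescaling TPM over protein-coding nuclear genes gave a sum of 282 TPM, since other RNA then leaves the total. Without genes that overlap another gene's exons, 7 of 15 tested genes were over 2-fold apart, from fewer genes, and HoxA held 8.71% (19.5% with all genes) and HoxD 8.52% (7.36% with all genes) of Hox TPM. The number of Hox genes at TPM 1 was 14 at a threshold of 2 and 23 at 0.5. With each pup alone it was 27 in pup 2 and 19 in pup 1, the sum 231 and 162.5 TPM, and the shares 19.2% and 19.8% for HoxA, 54.2% and 37.5% for HoxB, 18.7% and 36.0% for HoxC, 7.95% and 6.77% for HoxD, and 16.3% and 9.79% for groups 9 to 13. DESeq2 size factors kept the direction of all 30 ratios. Depth limits genes under 10 counts, and 2 libraries limit every difference between the pups.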

Other observations

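In the HoxD cluster, Gm28309, a processed transcript whose exons overlap Hoxd10 and Hoxd11, had 1.89 TPM (32 counts) in pup 2 and 0 counts in pup 1. The long noncoding RNA gene Hotair in the HoxC cluster was at 0 in both pups.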
